A study of Homo sapiens with 6 samples.

Results

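The clustered protocadherin genes were examined in RNA-seq of HGC27, an established human gastric cancer cell line. Members were all rows on chromosome 5 whose symbol was *PCDHA*, *PCDHB*, *PCDHGA*, *PCDHGB*, *PCDHGC* or *PCDHAC* followed by a number, and 54 of the 39739 rows met this rule. They comprised 16 alpha, 16 beta and 22 gamma genes, all on the plus strand within chr5:140786136-141512981 (GRCh38). HGC27-FN1 3′-UTR cells had the *FN1* 3′-UTR stably overexpressed from a lentivirus, HGC27-control cells did not, and 3 libraries were sequenced for each group. Both groups were grown in RPMI-1640 medium with serum, the transduced cells were not described as a single clone, and the labels do not say whether replicates were separate cultures. P-values therefore measure only the spread between these libraries, which may be technical. Values are RPKM (reads per kilobase of exon per 1000000 reads assigned to genes), from 16357085 to 37037532 assigned reads per library.

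Clustered protocadherins are cell-surface proteins of the cadherin superfamily that bind the same isoform on an opposing cell. They are best known from neurons, where each cell uses a small choice of isoforms and where this diversity lets the branches of a neuron recognise and avoid each other. Each alpha or gamma isoform has its own promoter and its own large variable exon, which encodes the extracellular and transmembrane parts and is spliced to constant exons that encode the common cytoplasmic end. Beta genes consist of a variable exon without constant exons.

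In the deposited exon lists, 15 alpha genes ended in the same exons at chr5:140978949-140979007, chr5:140982475-140982563 and chr5:141009627-141012344, in all 2866 bases. All 22 gamma genes ended in the exons at chr5:141494807-141494865, chr5:141505393-141505481 and chr5:141510947-141512979, in all 2181 bases. The remaining alpha row, *PCDHA14*, was a single exon of 2298 bases without the shared exons, and every base of it lay inside *PCDHA10*. The splice junctions of GENCODE release 29 transcripts are shown because they mark where the part that belongs to 1 gene ends and the part common to the cluster begins. Each run gives the last 15 bases of the variable exon in lower case and the first 15 bases of the first shared exon in capitals, 5′ to 3′ on the plus strand.

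PCDHA5: acctctacagacaacCCACGACAGCCCAAC
PCDHA10: gaccactctaggaagCCACGACAGCCCAAC
PCDHA13: gaatgcttgaaagagCCACGACAGCCCAAC
PCDHGB7: aagattcttaaacagCAAGCCCCGCCCAAC
PCDHGA3: tccaacctacttcagCAAGCCCCGCCCAAC
PCDHGC3: gcccctcccggacagCAAGCCCCGCCCAAC

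The 15 bases before the junction differed between all 15 alpha genes and between all 22 gamma genes, while the capitals were the same within a cluster. The first shared exon was 59 bases long in both clusters with 39 identical positions (66.1%), and the second was 89 bases long with 29 identical positions (32.6%), without gaps. A read that lies wholly inside the shared exons therefore cannot be assigned to 1 gene of its cluster.

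The targeted gene was checked first. *FN1*, which encodes fibronectin, measured 0.777, 0.745 and 0.819 RPKM in HGC27-FN1 3′-UTR cells and 0.543, 0.474 and 0.532 RPKM in control cells, a log2 fold change of 0.52 (SE 0.11, limma adjusted p = 0.0292). The value is for the whole gene and does not measure the overexpressed 3′-UTR separately. Reads of the construct and of the cell's own *FN1* cannot be told apart in it. Epithelial markers moved with the groups, with 6 of 7 tested markers higher and their summed level at 21.2 to 30.3 RPKM in HGC27-FN1 3′-UTR cells against 4.62 to 5.00 RPKM in control cells. *KRT18*, a keratin, had the largest change of these markers (log2 fold change 4.11, adjusted p = 0.000557), and *TFF1* was at 0 in 5 of the 6 libraries. Of 4 tested mesenchymal markers 2 were higher (*SNAI2*, 0.87, adjusted p = 0.00718, and *COL1A1*, 0.55, adjusted p = 0.0115), with summed levels of 353 to 379 against 331 to 376 RPKM. Of 5 tested neuronal markers *NEFL*, a neurofilament, was lower (-0.69, adjusted p = 0.00132) and held most of a summed level of 16.7 to 18.8 against 27.3 to 28.6 RPKM, while *STMN2* had no read in 5 of the 6 libraries. Blood and endothelial markers summed to at most 0.290 RPKM, *PECAM1* was at 0 throughout, and the 1 tested was not called. Over all tested genes 5.62% were called higher and 7.36% lower. The part of these marker changes in the protocadherin results was not tested, and in bulk RNA fewer cells expressing a gene and less RNA per cell cannot be told apart.

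Gamma genes were higher in HGC27-FN1 3′-UTR cells in every row. All 22 passed the test, with log2 fold changes of 0.31 to 0.39 (median 0.35, SE 0.05 to 0.07, limma on log2(RPKM + 0.1), adjusted p from 0.00785 to 0.0237). Among all 23299 tested genes 5.62% were called higher and the median log2 fold change was -0.04. In all 22 gamma rows the 3 HGC27-FN1 3′-UTR libraries lay above the 3 control libraries, against 14.3% of all tested genes, but these rows count largely the same reads and are not 22 separate observations. None met the study's criteria (fold change beyond 1 on the log2 scale in either direction with p under 0.05 before adjustment), which 2.47% of tested genes met. The count of called genes fell to 1 without HGC27-FN1 3′-UTR replicate 1 or without control replicate 2, to 9 without HGC27-FN1 3′-UTR replicate 2 and to 10 without its replicate 3.

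*PCDHGC3*, a C-type isoform, had the highest level of the cluster at 7.26, 6.85 and 7.22 RPKM in HGC27-FN1 3′-UTR cells and 5.36, 5.65 and 6.05 RPKM in control cells. Its log2 fold change was 0.32 (SE 0.06, adjusted p = 0.0176). *PCDHGB1* measured 4.55, 4.40 and 4.39 against 3.34, 3.59 and 3.78 RPKM, and *PCDHGB7* 4.47, 4.44 and 4.47 against 3.22, 3.37 and 3.56 RPKM. *PCDHGB7* had the largest change of the deposited gamma rows at 0.39 (SE 0.05, adjusted p = 0.00785). All the exon bases of the opposite-strand row AC005618.8 lie within *PCDHGB1*. The strand setting of the counting is not given in the sources used here, so their reads cannot be told apart.

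The next gamma rows by level were variable isoforms of the A and B subfamilies, and they formed a narrow band. *PCDHGB2* measured 4.44, 4.25 and 4.36 against 3.24, 3.48 and 3.64 RPKM. *PCDHGA9* measured 4.45, 4.28 and 4.23 against 3.06, 3.37 and 3.50 RPKM. *PCDHGB3* measured 4.25, 4.21 and 4.18 against 3.11, 3.33 and 3.47 RPKM. The means of these 3 genes, neighbours in the order of levels, differed by less than the SD of the control libraries. *PCDHGA4* (4.24, 4.07 and 4.09 against 3.02, 3.25 and 3.42 RPKM) and *PCDHGA12* (4.28, 4.07 and 4.12 against 2.99, 3.21 and 3.38 RPKM) lay just under them. The lowest rows were *PCDHGA6* (2.64, 2.53 and 2.57 against 1.93, 2.06 and 2.12 RPKM) and *PCDHGA8* (2.31, 2.23 and 2.25 against 1.67, 1.78 and 1.87 RPKM). These are the gamma rows with long merged exons, 7910 and 8661 bases, and *PCDHGA8* shares 2266 of them with *PCDHGB4*.

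The reads behind these rows were almost equal in number from gene to gene. The fewest reads of any gamma row were 325, 471 and 569 in HGC27-FN1 3′-UTR cells and 317, 469 and 594 in control cells, in *PCDHGA3* in 5 libraries and in *PCDHGC4* in HGC27-FN1 3′-UTR replicate 1. If every read in a shared exon was counted once for each gene that holds the exon, this lowest count is the most that the shared exons can hold, and it is called the ceiling here. The median gamma gene had 97.1% to 98.3% of its reads at or below the ceiling, and *PCDHGC3* had 48.8% to 51.8%. The plot of reads per gene shows the 22 gamma genes resting on this level, with *PCDHGC3* alone far above it.

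**Figure D1:**
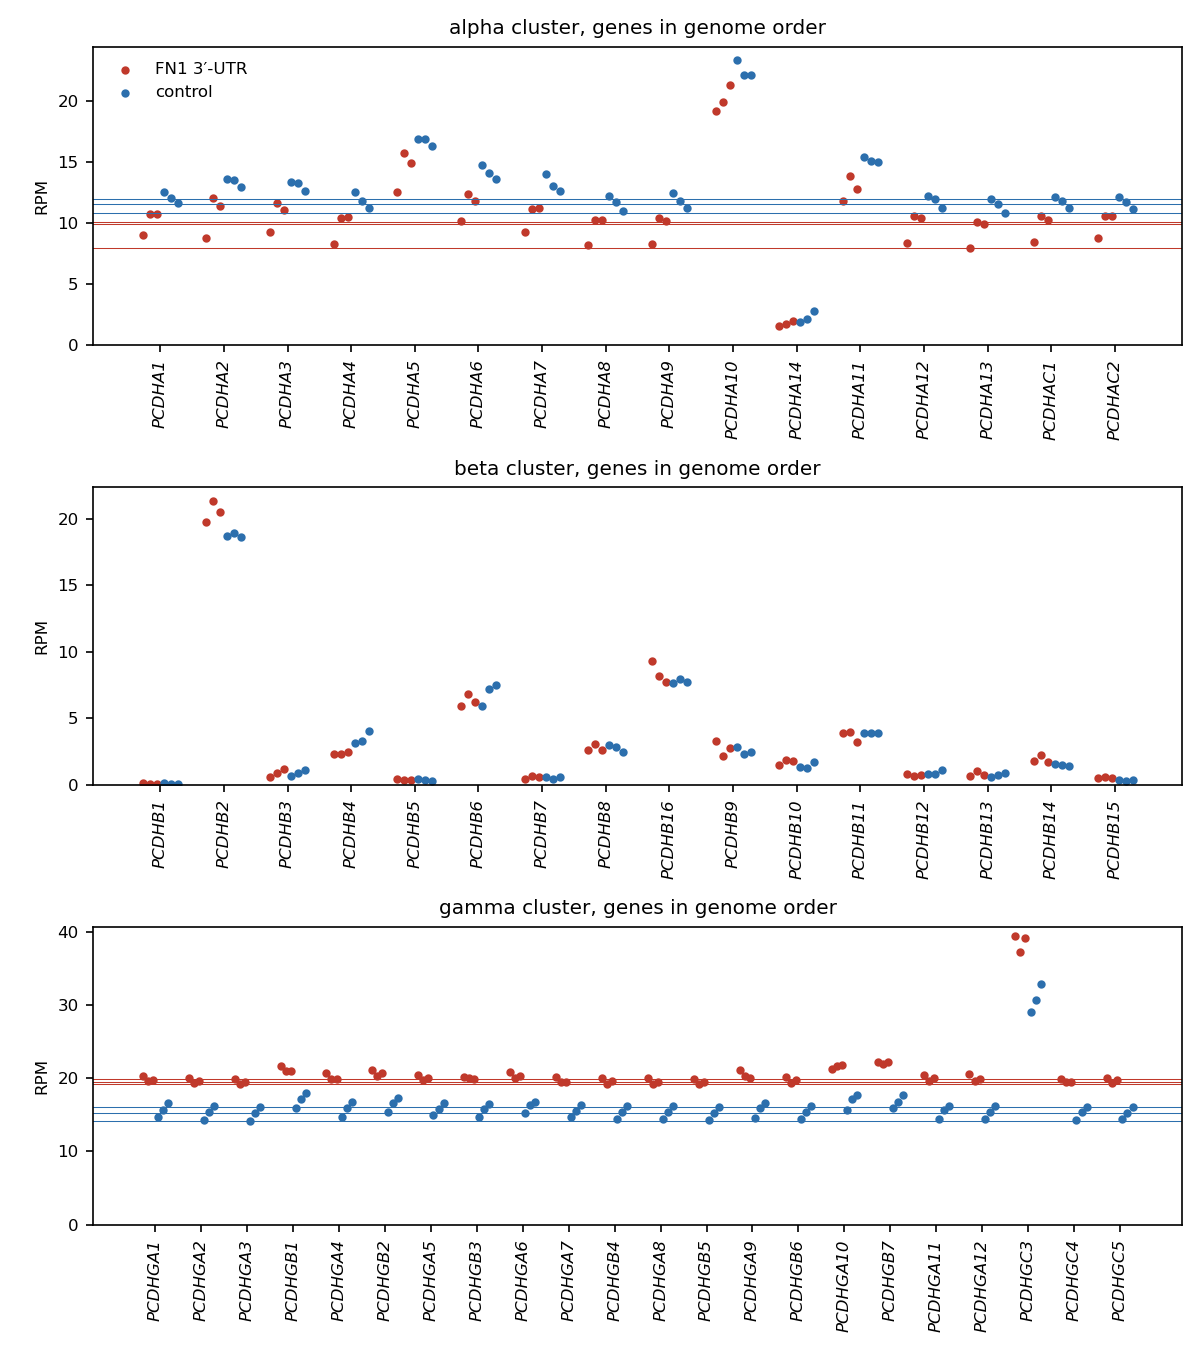
Reads in RPM, reads per 1000000 assigned reads (vertical axes), for each alpha, beta and gamma gene in genome order (horizontal axes), with 1 point per library, red for the 3 HGC27-FN1 3′-UTR and blue for the 3 control libraries. Thin lines mark each library's ceiling, the lowest count of the cluster, at 19.3 to 19.9 RPM in HGC27-FN1 3′-UTR cells and 14.2 to 16.0 RPM in control cells for the gamma genes.

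The 2 ceilings differed between the groups with opposite signs. The gamma ceiling was 19.9, 19.3 and 19.5 RPM (reads per 1000000 assigned reads) in HGC27-FN1 3′-UTR cells and 14.2, 15.2 and 16.0 in control cells, a ratio of means of 1.29. The alpha ceiling, always the count of *PCDHA13*, was 7.89, 10.1 and 9.90 against 11.9, 11.5 and 10.8 RPM, a ratio of 0.814. Neither pair of groups overlapped, and each difference had p = 0.1 in a two-sided exact permutation test, the smallest value 3 libraries against 3 allow. The ratio of the gamma to the alpha ceiling, which does not depend on library scaling, was 2.52, 1.91 and 1.97 in HGC27-FN1 3′-UTR cells and 1.19, 1.32 and 1.49 in control cells (exact permutation p = 0.1). HGC27-FN1 3′-UTR replicate 1, the shallowest library, had the lowest alpha ceiling with 129 reads, and without it the difference in the alpha ceiling went from -2.12 to -1.43 RPM.

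**Figure D2:**
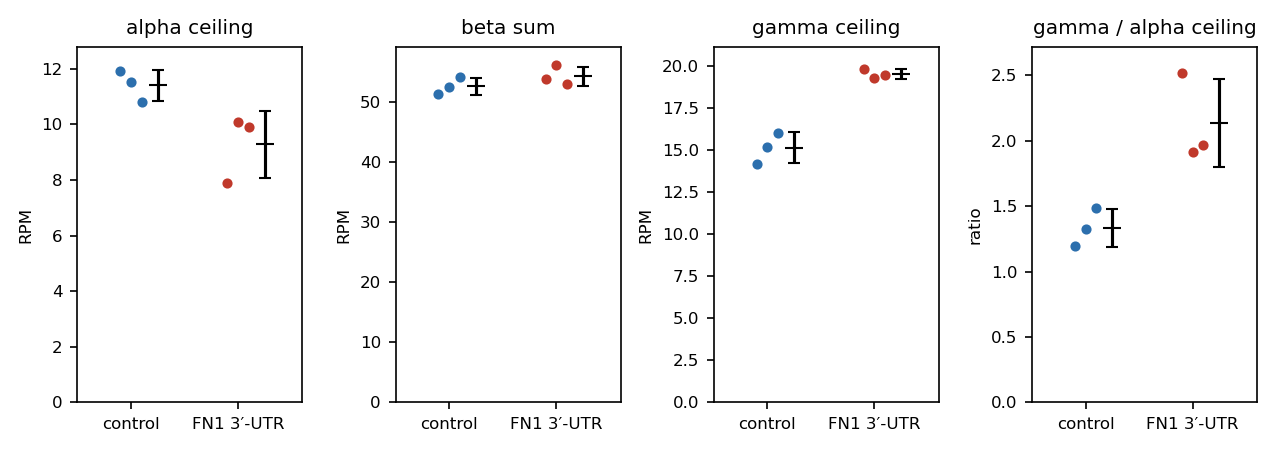
Alpha ceiling, summed beta reads and gamma ceiling in RPM, and the ratio of the gamma to the alpha ceiling, for 3 control (blue) and 3 HGC27-FN1 3′-UTR libraries (red), with black bars for the mean and SD. The groups do not overlap for either ceiling or for the ratio (1.19 to 1.49 against 1.91 to 2.52), and they overlap for the beta sum.

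A second fit across all genes treated the shared exons of each cluster as rows of their own and gave every alpha and gamma gene only its reads above the ceiling, per kilobase of its own exons. This fit was added after the deposited values had been seen. Because the ceiling is an upper limit of the shared reads, the values given below are lower limits of what was counted on a gene's own exons. Where these exons overlap other rows, the values may include reads of those rows. The shared gamma exons were higher by 0.36 on the log2 scale (SE 0.05, limma adjusted p = 0.00972), and their adjusted p stayed between 0.0150 and 0.0459 when any 1 library was left out. The shared alpha exons had a log2 fold change of -0.30 (SE 0.10, adjusted p = 0.111). Of the 22 gamma genes 13 passed the filter on low values on their own exons, and 2 were called higher, against 5.51% of all rows in that fit.

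The 2 called gamma genes were *PCDHGB7* and *PCDHGC3*. *PCDHGB7* had 38, 67 and 79 reads above the ceiling in HGC27-FN1 3′-UTR cells and 40, 46 and 60 in control cells, or 0.834, 0.985 and 0.971 against 0.643, 0.536 and 0.582 RPKM (log2 fold change 0.58, SE 0.12, adjusted p = 0.0258). *PCDHGC3* had 320, 438 and 576 against 333, 477 and 623 reads above the ceiling, or 6.02, 5.52 and 6.07 against 4.59, 4.76 and 5.17 RPKM (0.27, SE 0.06, adjusted p = 0.0403). For both genes the groups did not overlap. On reads above the ceiling HGC27-FN1 3′-UTR libraries lay above control libraries in 3 of the 22 gamma genes and below in 2. Among all tested genes 14.3% lay above and 21.7% below on deposited values. With 1 library left out *PCDHGB7* kept an adjusted p under 0.05 in 2 of 6 fits, with the other 4 at 0.0732 to 0.0891. *PCDHGC3* did so in 1 of 6, without control replicate 3, with the other 5 at 0.0562 to 0.127. A replicate block also ended both calls, with adjusted p of 0.0909 for *PCDHGB7* and 0.0725 for *PCDHGC3*.

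The other gamma genes had few reads above the ceiling. *PCDHGC3* held 54.7% to 60.6% of all gamma reads above the ceiling in the 6 libraries, and its share did not separate the groups. 8 of the 22 genes had fewer than 10 reads above the ceiling in every library, among them *PCDHGA8*, *PCDHGC4* and *PCDHGC5*. *PCDHGA3* had at most 1 read above the ceiling, a value fixed by its use as the lowest row that says nothing of the reads on its own exon. *PCDHGB1*, *PCDHGB2* and *PCDHGA10* had mean levels of 0.687, 0.483 and 0.416 RPKM on their own exons, and their log2 fold changes were -0.15, -0.13 and 0.20 with adjusted p of 0.459, 0.615 and 0.622.

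**Figure D3:**
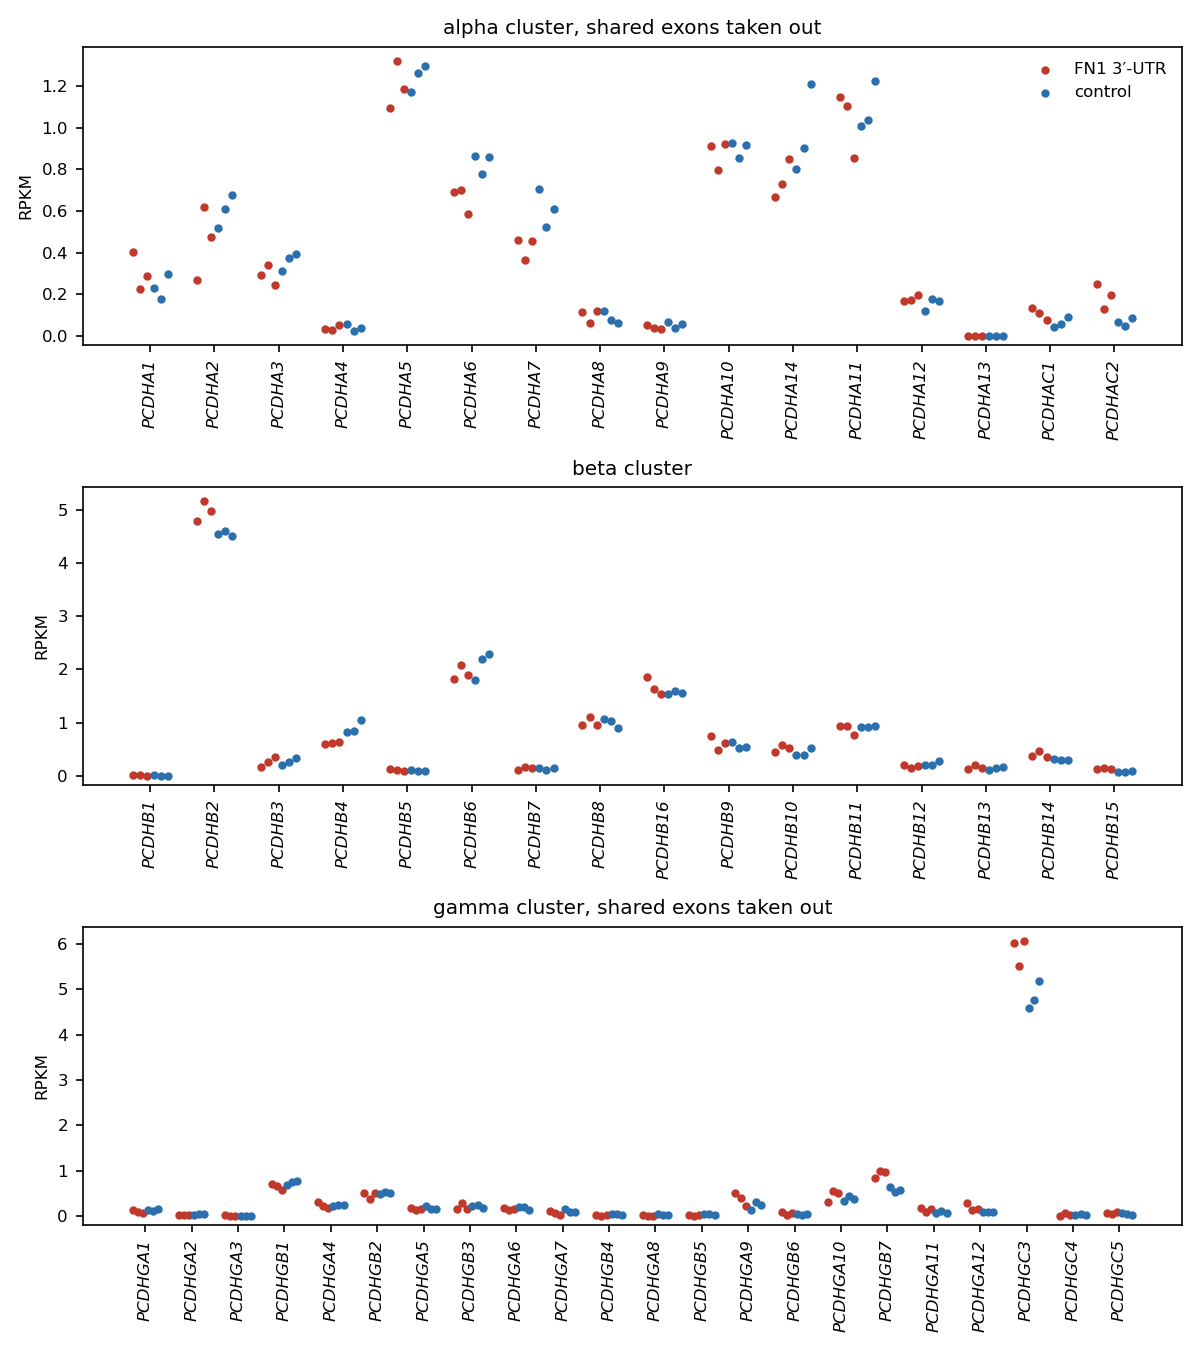
RPKM (vertical axes, a separate scale for each cluster) of each gene in genome order, computed from reads above the ceiling per kilobase of the gene's own exons for alpha and gamma genes and as deposited for beta genes and *PCDHA14*. Points are the 3 HGC27-FN1 3′-UTR (red) and the 3 control libraries (blue). *PCDHGC3* (4.59 to 6.07 RPKM) and *PCDHB2* (4.52 to 5.17 RPKM) stand above all others, while the alpha genes stay under 1.33 RPKM.

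Alpha genes had lower values in HGC27-FN1 3′-UTR cells, and none passed the test. All 16 log2 fold changes were below 0 (-0.32 to -0.15, median -0.27), the lowest adjusted p was 0.0781, and 11 genes had an unadjusted p under 0.05 (limma), as did 29.6% of all tested genes. Of all tested genes 7.36% were called lower. In 15 of 16 alpha rows the HGC27-FN1 3′-UTR libraries lay below the control libraries, against 21.7% of all tested genes, and again the rows shared most of their reads. With voom, limma's weighting of recovered reads, 10 alpha genes were called lower, against 13.2% of all tested genes.

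The highest alpha rows were *PCDHA11* at 1.88, 2.20 and 2.04 against 2.44, 2.40 and 2.38 RPKM, *PCDHA5* at 1.76, 2.20 and 2.10 against 2.37, 2.37 and 2.29 RPKM, and *PCDHA6* at 1.66, 2.02 and 1.93 against 2.40, 2.29 and 2.22 RPKM. HGC27-FN1 3′-UTR replicate 1 was the lowest library in all 3. The lowest rows were *PCDHA4* (0.614, 0.771 and 0.777 against 0.933, 0.876 and 0.834 RPKM) and *PCDHA14* (0.665, 0.731 and 0.849 against 0.799, 0.904 and 1.21 RPKM). *PCDHA14* was the only alpha row whose groups overlapped.

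On their own exons the alpha genes ranked differently. *PCDHA5* and *PCDHA11* led with means of 1.22 and 1.06 RPKM, followed by *PCDHA10* at 0.887 RPKM, and *PCDHA13* was at 0 by construction. The exons of *PCDHA5* share 590 bases with the opposite-strand row AC005609.16, which had 31 to 71 reads per library. Those of *PCDHA10* hold all 2298 bases of *PCDHA14*. Reads in these bases cannot be told apart, so both levels may include reads of other rows. *PCDHA10* held 34.1% to 39.8% of the alpha reads above the ceiling, with own exons of 12358 bases. Of 12 alpha rows tested in this fit, *PCDHA14* included, none was called, 8 had a log2 fold change below 0 and 4 above 0, and the median was -0.06. *PCDHA10* and *PCDHA5* had 11.2, 9.83 and 11.4 against 11.4, 10.6 and 11.3, and 4.65, 5.61 and 5.03 against 4.97, 5.35 and 5.51 RPM on their own exons, with overlapping groups. *PCDHA6* had 2.26, 2.29 and 1.92 against 2.82, 2.53 and 2.81 RPM (log2 fold change -0.30, adjusted p = 0.137). *PCDHA7* had 1.34, 1.06 and 1.34 against 2.06, 1.53 and 1.78 RPM (-0.43, adjusted p = 0.120). Both were named here after their values were seen. Of 15 alpha genes, HGC27-FN1 3′-UTR libraries lay below control libraries in these 2 and above in *PCDHAC2*. On deposited values 21.7% and 14.3% of all tested genes did so. *PCDHAC2*, a C-type isoform named here after its values were seen, had the highest log2 fold change of the alpha genes on own exons. It had 14, 11 and 20 reads above the ceiling against 5, 5 and 11, a log2 fold change of 0.80 (SE 0.25, adjusted p = 0.0862). *PCDHAC2* reached the filter of 0.1 RPKM only in HGC27-FN1 3′-UTR libraries (0.248, 0.130 and 0.198 against 0.0649, 0.0470 and 0.0860 RPKM). It was tested only through the group where it was higher, so its sign, counted among the 4 above 0, was fixed by the filter.

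Per kilobase, the own exons of the gamma genes summed to about the level of the shared exons. Their summed level was 1.10 to 1.17 times the shared-exon RPKM in HGC27-FN1 3′-UTR cells and 1.22 to 1.29 times in control cells. For the alpha genes the sum was 1.65 to 2.19 times the shared-exon RPKM in HGC27-FN1 3′-UTR cells and 1.49 to 1.80 times in control cells. Some own exons overlap, such as those of *PCDHGB4* and *PCDHGA8* (2266 bases) and of *PCDHA2* and *PCDHA3* (562 bases). Both sums may therefore hold some reads more than once. The shared exons measured 8.84 to 9.11 against 6.51 to 7.35 RPKM in the gamma cluster and 2.75 to 3.51 against 3.77 to 4.16 RPKM in the alpha cluster.

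Beta genes, which share no constant exon, were not called in either direction. Of the 16 genes 15 were tested, 10 had a log2 fold change above 0 and 5 below 0, with a median of 0.08 and a range of -0.48 to 0.37. At an unadjusted p under 0.05 there were 2, against 29.6% of all tested genes. Their summed reads were 53.9, 56.2 and 53.0 RPM in HGC27-FN1 3′-UTR cells and 51.4, 52.6 and 54.2 in control cells, with overlapping groups (difference of means 1.64 RPM, exact permutation p = 0.3). With median-ratio scaling the difference was 2.94 RPM (exact permutation p = 0.1). In 3 genes the HGC27-FN1 3′-UTR libraries lay above the control libraries and in 1 below, against 14.3% and 21.7% of all tested genes. *PCDHB15* is among these 3 and among the 10 above 0, and its place in both was fixed by the filter on low values.

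*PCDHB2* had the highest beta level at 4.79, 5.17 and 4.97 RPKM in HGC27-FN1 3′-UTR cells and 4.54, 4.59 and 4.52 RPKM in control cells. Its groups did not overlap, but the difference was small (log2 fold change 0.13, SE 0.05, adjusted p = 0.121). It held 36.7%, 38.0% and 38.7% against 36.4%, 36.0% and 34.4% of all beta reads (exact permutation p = 0.1). *PCDHB6* measured 1.82, 2.09 and 1.90 against 1.81, 2.21 and 2.30 RPKM and *PCDHB16* 1.86, 1.64 and 1.54 against 1.53, 1.59 and 1.55 RPKM, with overlapping groups. Together with *PCDHB2* they held 62.5% to 64.9% of the beta reads. The exons of *PCDHB16* share 432 bases with the same-strand rows CH17-140K24.4 and CH17-140K24.5. They also share 815 bases with the opposite-strand row CH17-140K24.7. Those of *PCDHB2* share 620 bases with the opposite-strand row CTC-270D5.1. Reads in these bases cannot be told apart, so these levels and the beta sum may include reads of other rows.

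The lowest beta genes were *PCDHB1*, with 1 or 2 reads in each library and therefore not tested, and *PCDHB15*, at 0.122, 0.143 and 0.128 against 0.0780, 0.0646 and 0.0941 RPKM. *PCDHB15* had the highest log2 fold change of the beta genes (0.37, SE 0.21, adjusted p = 0.303) on 7 to 15 reads. Its control values all lay under the filter of 0.1 RPKM and its HGC27-FN1 3′-UTR values all above it. *PCDHB15* was thus tested only through the group where it was higher, and its sign was fixed by the filter. *PCDHB4*, named here after its values were seen, had the lowest value with 0.607, 0.610 and 0.645 against 0.819, 0.848 and 1.06 RPKM. Its log2 fold change was -0.48 (SE 0.12, adjusted p = 0.0527), and it was under 0.05 with voom (adjusted p = 0.0107) and with a pseudocount of 0.01 (adjusted p = 0.0494). The exons of *PCDHB15* share 379 bases, and those of *PCDHB14* 169 bases, with the same-strand row CH17-140K24.8, which was itself called higher.

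**Figure D4:**
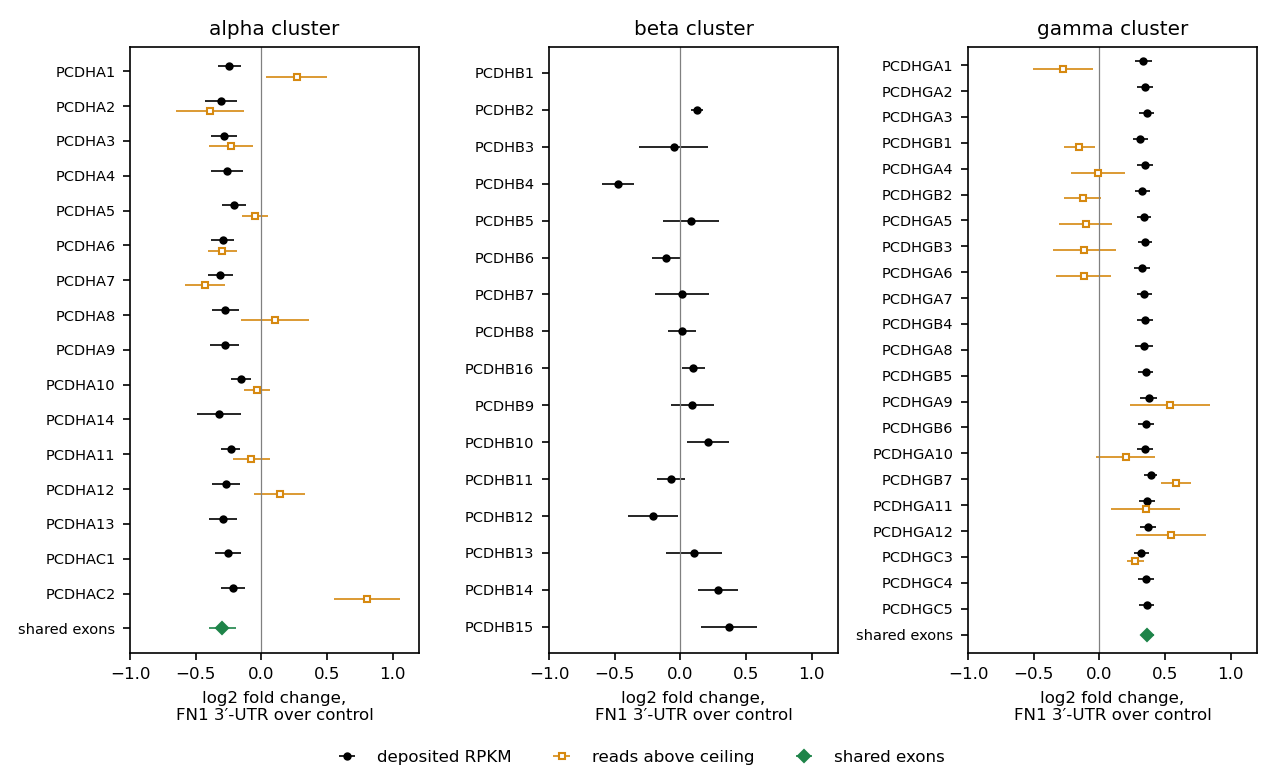
Log2 fold change of HGC27-FN1 3′-UTR over control cells (horizontal axes) with SE bars for each gene in genome order, from the deposited RPKM (black) and from reads above the ceiling (orange squares, where tested), with the shared exons of a cluster in green. Deposited gamma values stand in a column at 0.31 to 0.39, whereas values from the genes' own exons spread from -0.28 to 0.58.

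The promoters of the clusters are known to carry a conserved sequence element with the core CGCT. RefSeq promoters (GRCh38.p14, 250 bases before to 50 after each start) matched 47 of the 54 members with 52 sequences. Counting either strand, CGCT was in 12 of 13 alpha, 14 of 14 beta and 25 of 25 gamma promoters, against 70.0% of all 35116 promoters, and CGCTG in 9, 12 and 25 of them against 48.0%. The longer GGTGGCGCT, which contains CGCT, was in 13 of the 14 beta promoters, in none of the alpha or gamma promoters and in 0.501% of all promoters. *PCDHB1*, the beta gene with 1 or 2 reads, was the matched beta gene without it. Runs of 30 bases are shown for leading members of each cluster, *PCDHGB7* and *PCDHB4*, on the plus strand, with the longer motif in capitals for beta genes and CGCTG in capitals for the others.

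PCDHA5: catccacatgatgtCGCTGgacaccggaag
PCDHA10: aagccaccggatgtCGCTGtcgtccacaaa
PCDHB2: agagacgcggGGTGGCGCTgcagccttaga
PCDHB4: caagacgcagGGTGGCGCTgcaggctaagt
PCDHB16: gagaacgcgtGGTGGCGCTgcaggttaaga
PCDHGC3: gggactctgtgtgcCGCTGtcggccaatga
PCDHGB7: cagtgcagagcaagCGCTGacgccggggat

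These runs lie at chr5:140821544-140821573, chr5:140855843-140855872, chr5:141094545-141094574, chr5:141121724-141121753, chr5:141182311-141182340, chr5:141475882-141475911 and chr5:141417609-141417638 in the order given. *PCDHB2* and *PCDHB4* carry the same 9 letters 60 and 84 bases before the start. The *PCDHGB7* run is letter for letter the same as a match of *PCDHGB6* 57 bases before its start. *PCDHGB6* has another match at 81 bases with other letters around it. Whether the *PCDHGB7* run is the conserved element was not tested. A match is a description of the letters and does not show that a factor binds there.

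Genes known to act on the clustered protocadherin promoters were mostly not called. Of 21 tested regulators none was called higher and 3 were called lower, against 5.62% and 7.36% of all tested genes, with a median log2 fold change of -0.03. *CTCF*, the zinc finger protein that binds these promoters and their enhancers, measured 34.0, 33.8 and 34.2 RPKM in HGC27-FN1 3′-UTR cells and 41.9, 41.1 and 39.2 RPKM in control cells (-0.26, SE 0.03, adjusted p = 0.00682). *STAG1*, a cohesin subunit, fell by 0.31 (adjusted p = 0.0110) and *DNMT3B*, a DNA methyltransferase, fell by 0.27 (adjusted p = 0.0189) on the log2 scale.

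Of 13 tested partners of the cytoplasmic domains none was called higher and 5 were called lower, against 5.62% and 7.36% of all tested genes. *FYN*, a tyrosine kinase, measured 0.775, 0.785 and 0.855 against 1.59, 1.61 and 1.28 RPKM (-0.81, SE 0.11, adjusted p = 0.00897). *WASF3* and *ABI1*, members of the WAVE actin regulatory complex, fell by 0.51 and 0.24 (adjusted p = 0.00525 and 0.0123), and *AXIN1*, a scaffold of Wnt signalling, fell by 0.35 (adjusted p = 0.00497). Of the genes of protocadherin shedding and cleavage, *PSENEN*, a gamma-secretase subunit, fell by 0.23 on the log2 scale (adjusted p = 0.00841), and no tested gene was called higher.

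Protocadherins outside the clusters moved in both directions. Of 12 listed, 8 were tested, 1 was higher and 2 were lower, against 5.62% and 7.36% of all tested genes. *PCDH7* measured 1.63, 1.56 and 1.68 RPKM in HGC27-FN1 3′-UTR cells and 0.961, 0.962 and 0.974 RPKM in control cells (0.69, SE 0.07, adjusted p = 0.00404). *PCDH10* measured 1.75, 1.91 and 1.78 against 2.54, 2.80 and 2.72 RPKM (-0.54, adjusted p = 0.00663), and *PCDH20* 0.525, 0.668 and 0.523 against 0.825, 0.856 and 0.949 RPKM (-0.54, adjusted p = 0.0416). Of the 28 other rows inside the locus, 17 were tested and 1 was called higher, against 5.62% of all tested genes. It was CH17-140K24.8, on 12 to 22 reads (0.67, SE 0.11, adjusted p = 0.0160).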

How the data were processed

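RNA-seq of 3 HGC27-FN1 3′-UTR and 3 HGC27-control libraries was analysed, with groups from the sample labels. The authors made strand-specific mRNA libraries and deposited RPKM per gene, 1 table per library, with GRCh38 exon coordinates. The submitters' processing notes name Trimmomatic 0.36, STAR 2.5.3a and featureCounts of Subread 1.5.1. The annotation release and the settings for strand and for reads in several genes are not given in the sources used here.

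RPKM times length gave whole reads for 100% of values above 0 (tolerance 0.02), and these set the depth, the ceilings and the reads above them. Genes that reached 0.1 RPKM in 3 or more libraries were tested on log2(RPKM + 0.1) with limma 3.58.1 (R 4.3.3), with group as the only term and a trended prior variance. The test was two-sided, was checked on simulated data and was adjusted by Benjamini-Hochberg over all tested genes. Since the ceiling is an upper limit, reads above it are a lower limit of the reads counted on a gene's own exons. Where those exons overlap other rows, the reads may include reads of those rows. Single values were compared by exact permutation tests.

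Members and gene lists were chosen with earlier results of these data known. Values in every library are given for called members (at most 8 per cluster by mean RPKM), for the 3 highest and the 2 lowest of each cluster, and for genes said to be named after their values were seen. List genes were named if called (at most 4 per list by size of change). Some genes that this would name are left out here. Alternatives were other pseudocounts and filters, median-ratio scaling, voom, the replicate number as a block and each library left out. Tables and figures used Python 3.11.15, pandas 2.3.3, numpy 2.4.6, scipy 1.17.1 and matplotlib 3.10.9.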

Additional observations from a re-analysis of the deposited data

How the results depend on the processing

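The 22 gamma genes stayed called with either other pseudocount, without a filter, with a filter at an RPKM of 1, with median-ratio scaling and with voom. The count fell to 2 on reads above the ceiling, to 0 by the study's criteria, and ranged from 1 to 22 when 1 library was left out, with fewer samples in each fit. In the paired fit (replicate block) it was 1, *PCDHGB7*, whose deposited row kept an adjusted p under 0.05 under every alternative scaling, pseudocount, filter and left-out library. Deviations of same-numbered libraries correlated at 0.00244, 0.0211 and 0.0103, so the numbers did not pair the samples. Genes called lower were 10 in the alpha cluster with voom, and 1 in the beta cluster (*PCDHB4*) both with voom and with a pseudocount of 0.01. For these the cause was not tested. The differences in the beta sum and in both ceilings kept their direction under median-ratio scaling and with each library left out, and the beta sum difference ranged from 0.727 to 2.38 RPM with 1 library left out. Few reads stood above the ceiling, fewer than 10 in every library for 8 gamma genes, which limits what can be said of single genes.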

Other observations

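On reads above the ceiling the signs of the tested gamma genes changed along the cluster, a division drawn on those signs after the values were seen and not tested. The first 11 genes in genome order, *PCDHGA1* to *PCDHGB4*, included 7 tested genes, all with a log2 fold change below 0 (-0.28 to -0.01, none called). The last 11, *PCDHGA8* to *PCDHGC5*, included 6 tested genes, all above 0 (0.20 to 0.58, of which *PCDHGB7* and *PCDHGC3* were called). Among these 6, *PCDHGA12* reached the filter of 0.1 RPKM only in HGC27-FN1 3′-UTR libraries (0.279, 0.124 and 0.143 against 0.0850, 0.0862 and 0.0923 RPKM). The sign of *PCDHGA12* was therefore fixed by the filter. With 1 library left out, *PCDHGA4* ranged from -0.17 to 0.12 and *PCDHGB3* from -0.32 to 0.01. Among the untested genes of the last 11, *PCDHGA8*, *PCDHGB5* and *PCDHGC4* had ratios below 1 (0.324, 0.369 and 0.775) on 0 to 6 reads per library. The reads above the ceiling of the first 11 genes summed to 7.09, 5.81 and 5.65 RPM (reads per 1000000 assigned reads) in HGC27-FN1 3′-UTR cells and 7.30, 7.33 and 6.97 in control cells. Those of the last 11 without *PCDHGC3* summed to 7.09, 7.25 and 7.16 against 4.92, 5.48 and 4.86 RPM. Without *PCDHGB7* as well, the remaining 9 genes summed to 4.77, 4.50 and 4.45 against 3.13, 3.99 and 3.24 RPM, on 70 to 130 reads per library. Because the division was drawn on the signs of these same values, the direction of the sums follows largely from it. The sums are therefore no separate support for the division. All these values share the ceiling of their library, so they are not independent of each other.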
